A study of Mus musculus with 5 samples.

Results

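RNA polymerase II (Pol II) bound to chromatin was set against messenger RNA in the testis of wild-type mice, transcript by transcript. The transcripts described are those listed in both deposited tables, matched by their identifier, and they number 55350 of 55350 in the expression table and 55419 in the binding table. Of these, 48120 carried the name of a gene and gave 22247 named genes. For a gene, the highest RNA signal and the highest Pol II score in each class over its transcripts were taken.

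The series holds 5 libraries from testis, of which 2 are used here. The Pol II library came from chromatin of testes of 10 mice aged 3 months. It was sheared to fragments of 175 to 225 bp and precipitated with 4 µg of Pol II antibody from 1 mg of chromatin. The sample is labelled wild type, while the protocol shared by all the ChIP samples names both wild-type and Taf7l knockout chromatin. The RNA library was made from polyadenylated RNA of 6 wild-type mice of the same age, mixed in equal amounts, and held 100 to 200 M reads per the labels (M for mega). No depth is stated for the Pol II library, and the IgG library, the control precipitation, has no column in the tables. Each assay has 1 library, so no difference below has a replicate check, and transcripts or genes are not replicates. Testis holds germ cells of every stage beside Sertoli, Leydig, muscle and blood cells, and in such bulk tissue fewer cells of a type and less RNA per cell cannot be told apart.

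Pol II is brought to a gene's start by the general transcription factors, begins transcription there, and at many genes pauses a short way downstream before it is released into elongation. A ChIP signal at a promoter therefore counts polymerase that is present, whether it is paused or moving, while the amount of a messenger RNA also depends on how fast it is released, processed and degraded. Male germ cells are known for messages that are made in round spermatids and stored for translation after the chromatin has been compacted by protamines. Promoters rich in the dinucleotide CG form a large class in mammals that is typical of broadly expressed genes.

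The tables give 1 RNA signal and 3 Pol II scores per transcript, in classes named promoter, proximal and distal. The header states no unit for the RNA signal, and the score and the distances of the classes are not defined in it. A score of 0 was read as no Pol II signal assigned. The standard deviation (SD) listed beside each RNA signal has no stated basis and is no spread between mice. Its median ratio to the signal was 0.135 for transcripts with a signal of at least 1. Markers of the labelled tissue were abundant, with RNA signals of 17005 (SD 636) for Prm1 and 2666 (SD 48.6) for Ldhc. The epididymal markers Crisp1, Adam7 and Defb28 were at 0.042, 0.004 and 0.183, whereas Cst8, which testis also expresses, was at 222. Checked markers of Leydig cells ranged from 18.0 for Hsd3b1 to 1686 for Insl3, and those of Sertoli cells from 0.789 for Fshr to 564 for Clu. Spermatogonial markers ranged from 0.217 for Gfra1 to 12.3 for Dazl, and peritubular ones from 1.29 for Cnn1 to 30.0 for Acta2. Endothelial and blood markers ranged from 0.227 for Pecam1 to 13.8 for Hbb-b1. Leukocyte markers ranged from 0.06 for Ptprc to 12.2 for C1qb among the 5 checked.

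Pol II at the promoter separated genes with RNA from genes without it. Among genes with an RNA signal of at least 10, however, it was nearly unrelated to how much RNA there was. A promoter score was present for 29657 transcripts (53.6%), a proximal score for 24475 (44.2%) and a distal score for 35146 (63.5%), and 10957 (19.8%) had none in any class. Among named genes, 12605 (56.7%) had a promoter score, 4822 (21.7%) had no score in any class, and 12117 (54.5%) had an RNA signal of at least 1. Of those with an RNA signal of at least 1, 86.1% had a promoter score. When only the transcript with the highest RNA signal was read, the share was 75.9%. The share of genes with a promoter score was 1.85% at an RNA signal of 0, 4.19% up to 0.1, 41.9% from 0.1 to 1, 82.0% from 1 to 10 and 91.5% from 10 to 100. It was 92.5% from 100 to 1000 and 88.0% for the 50 genes at 1000 and above.

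The level of the score followed the same course. Among genes that had a promoter score, its median was 143 (quartiles 84.5 and 285) at RNA signals from 0.1 to 1 and 340 (188 and 534) from 1 to 10. From 10 to 100 it was 433 (257 and 653), and from 100 to 1000 it was 426 (249 and 645), so these last ranges overlapped almost completely. The 44 genes with a score at 1000 and above had a median of 540 (371 and 886). The step from an RNA signal of 10 to 100 up to 100 to 1000 thus came with no higher median score.

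**Figure D1:**
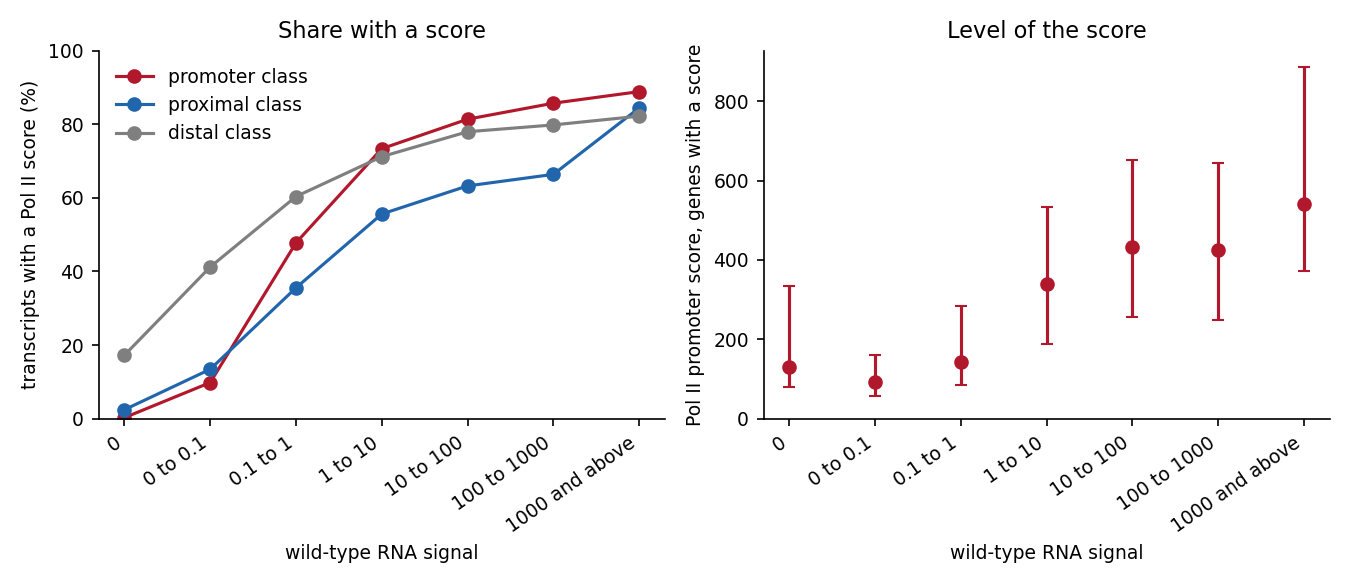
Left, the share of transcripts spanning at least 200 bp with a Pol II score (y axis, percent) in 7 ranges of wild-type RNA signal (x axis), with a line for each class. Right, the Pol II promoter score of genes that have a score (median, with bars from the lower to the upper quartile) in the same ranges; it climbs up to RNA signals of 10 to 100, where the median is 433, and stands at 426 from 100 to 1000.

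Rank correlations described the same shape. Across the 55350 transcripts Spearman's rho between the promoter score and the RNA signal was 0.533, against 0.291 for the proximal and 0.269 for the distal score. Across the 22247 genes the promoter value was 0.705. Among the 12117 genes with an RNA signal of at least 1 it was 0.260, and among the 5159 with at least 10 it was 0.036. These values describe 1 library of each kind, and neighbouring transcripts share signal, so no test is attached. Read from the other side, genes without a promoter score had a median RNA signal of 0.075. In 10 equal groups of rising score the median RNA signal went from 1.09 in the lowest to 13.4 in the highest, which had quartiles of 5.10 and 38.5. The share of genes with an RNA signal of at least 1 went from 52.1% to 95.7% over these groups.

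**Figure D2:**
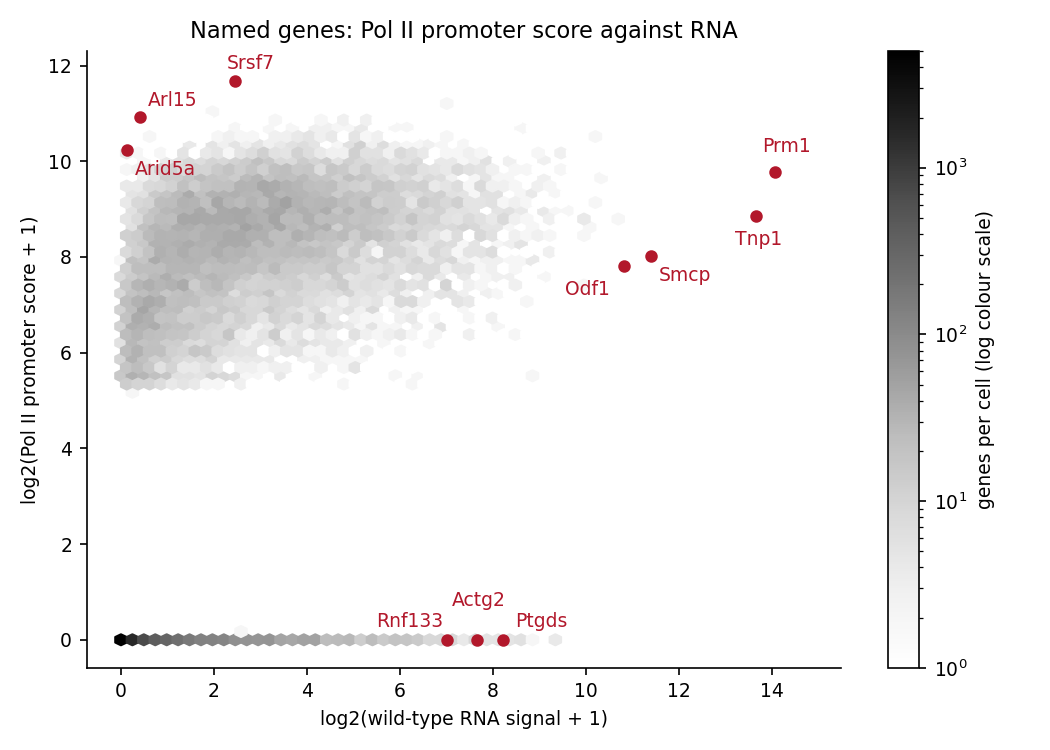
Pol II promoter score (y axis, log2 of score + 1) against wild-type RNA signal (x axis, log2 of signal + 1) for the 22247 named genes, shaded by the number of genes per cell on a log colour scale, with 10 genes marked in red. Prm1 and Tnp1 lie far to the right at scores of 871 and 461, while Srsf7, Arl15 and Arid5a have scores of 1200 or more at RNA signals under 5.

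Most distal scores, and a smaller part of the proximal ones, repeated the promoter score of another gene. Exactly equal scores above 30 were compared between genes of different names whose starts lay within 200 kb. A distal score equalled another gene's promoter score at 6785 of 10721 genes (63.3%), and a proximal score did so at 1932 of 7188 (26.9%). Of 12192 such distal pairs, 98.7% had starts 10 to 50 kb apart, with a median of 31.2 kb. Of 3023 proximal pairs 95.8% lay within 10 kb, with a median of 6.17 kb. Promoter scores that were equal between genes came from starts within 1 kb in 94.9% of 2234 pairs. These distances give a picture of the undefined classes as windows around a start, up to about 1, 10 and 50 kb. Genes with a distal score alone had a median RNA signal of 0.128 and genes with no score 0.02, whereas genes with a promoter score alone had 2.97 and genes with all 3 classes 7.42.

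**Figure D3:**
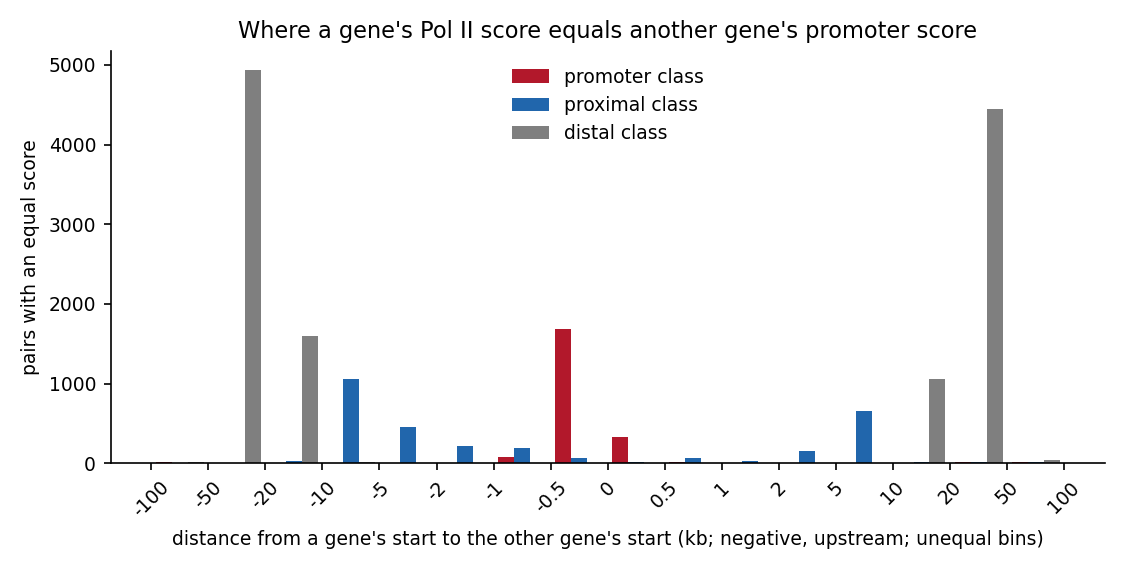
Number of gene pairs in which a Pol II score of a gene equals the promoter score of another gene (y axis), by the distance between the starts (x axis, kb, negative upstream, unequal bins), for the promoter, proximal and distal classes. Most pairs of the promoter class (94.9%) lie within 1 kb, of the proximal class (95.8%) within 10 kb, and of the distal class (98.7%) between 10 and 50 kb on both sides.

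The most abundant messages came from promoters whose Pol II scores ranged from below the median to the top 10%. Prm1 and Prm2, which encode the protamines that compact sperm DNA, had RNA signals of 17005 (SD 636) and 16972 (SD 465) with promoter scores of 871 and 714. Tnp2 and Tnp1 encode the transition proteins that replace histones before the protamines do. Tnp2 had an RNA signal of 13511 (SD 182) and a score of 1090. Tnp1 had 12873 (SD 166) and a score of 461. Prm1, Prm2 and Tnp2 are neighbours on chromosome 16, and the 1090 of Tnp2 was listed again as the proximal score of Prm1 and Prm2. Smcp, for a cysteine-rich protein of the sperm mitochondrial sheath, had an RNA signal of 2689 and a score of 259. Odf1, for a protein of the outer dense fibres of the tail, had 1796 and 225. The scores of Smcp and Odf1 lay below the median of all genes that had a score, which was 339. Ldhc, which encodes a lactate dehydrogenase found in male germ cells, had an RNA signal of 2666 and a score of 704. Meig1, a gene needed for the shaping of spermatids, had 1783 and 1080.

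Several of the highest promoter scores belonged to genes of transcription and RNA processing, with RNA signals from under 5 to over 50. Srsf7, a splicing factor gene, had a score of 3260 at an RNA signal of only 4.44 (SD 0.59). Nabp1, for a protein that binds single-stranded DNA, had 3210 at 11.6. Polr2a, which encodes the largest subunit of Pol II itself, had 2490 at 17.8. Ccnl1, for a cyclin linked to splicing, had 2380 at 4.97, and Hnrnpa2b1, for an RNA-binding protein, had 2450 at 52.6. The name hnRNP A2/B1, listed apart at the same locus with the same score, had an RNA signal of 362. Srsf7 thus had a higher score than Prm1, 3260 against 871, at RNA signals of 4.44 against 17005.

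Genes of the sperm tail and of sperm energy metabolism had lower median Pol II scores than ribosomal protein genes at similar median RNA. The 28 genes of the sperm tail had a median RNA signal of 212 and the 83 ribosomal protein genes 207, while their median promoter scores were 284 and 513. Ribosomal protein genes have many near-identical copies, so their RNA signals are uncertain. Over all named genes the medians were 1.44 and 95.4, and over the 899 genes with an RNA signal of at least 100 they were 193 and 407. The 19 genes of sperm energy metabolism had an RNA median of 206 and a score median of 265. The 24 acrosome genes had 70.8 and 304.5. Nearly all members had a promoter score, 26 of 28 tail genes, 18 of 19 energy genes, 23 of 24 acrosome genes and 80 of 83 ribosomal protein genes, beside the 56.7% of all named genes. Read only from the transcript with the highest RNA signal, the shares were 85.7%, 94.7%, 91.7% and 95.2%, beside 49.6%. Spread within the lists was wide. Ropn1l, a gene of the radial spoke, had the highest score of the tail list, 2120, at an RNA signal of 946. Tekt5, for a microtubule protein of the flagellum, had a score of 116 at an RNA signal of 66.6. Pgam2, a glycolytic enzyme gene, had 235 at 1160. Crisp2, for a secreted protein of the acrosome, had 297 at 641, whereas Acr, which encodes the protease acrosin, had 1210 at 70.5. All 12 genes of sperm chromatin packaging had a promoter score, with medians of 723 for RNA and 512 for the score.

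Genes of meiotic prophase and of the piRNA pathway had higher median scores than tail genes at much lower RNA. Medians of the spermatogonia genes were near those of all named genes. The 29 genes of meiotic prophase had a median RNA signal of 6.05 and a median score of 407, and 18 genes that work with piRNAs, small RNAs directed against transposons, had 16.2 and 670. Sycp3, a component of the synaptonemal complex that joins chromosomes in meiosis, had a score of 1600 at an RNA signal of 24.2. Mael, a piRNA pathway gene, had 1200 at 497. Of the 21 genes of spermatogonia 13 (61.9%) had a promoter score, near the 56.7% of all named genes. Their medians were 1.98 for RNA and 85.4 for the score, beside 1.44 and 95.4 over all named genes. Among the spermatogonia genes Dazl, for an RNA-binding protein of germ cells, had 1260 at 12.3. Gfra1, a receptor of spermatogonial stem cells, had 0 in all 3 classes at an RNA signal of 0.217.

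Median scores of the somatic marker lists were low for their RNA. Leydig cells make testosterone, and 9 of their 15 genes (60%) had a promoter score, near the 56.7% of all named genes, with medians of 19.5 for RNA and 60.3 for the score. Genes with RNA signals from 10 to 100 had a score in 91.5% of cases. Insl3, a hormone gene of these cells, had an RNA signal of 1686 (SD 94.7) and a score of 206. Cyp17a1, a steroid enzyme gene, had an RNA signal of 126 and a promoter score of 0, and Cyp11a1 had 40.0 and 0. Others of this list had high scores. Por, a reductase gene that many other cells also express, had 1060 at an RNA signal of 6.36, Fdx1, for a ferredoxin of steroid synthesis, had 559 at 35.4, and Scarb1, a lipoprotein receptor gene, had 407 at 19.5. The 22 Sertoli genes had medians of 7.63 and 101.5. Inha, for the hormone subunit inhibin alpha, had a score of 59.9 at an RNA signal of 59.6. For 20 of the 22 the rank of RNA among named genes was above that of the score, beside 9969 of all 22247. Kitl, with a score of 333 at 2.76, and Gata4, with 297 at 3.28, went the other way. Ctsl had the highest score of the list, 669 at 167. Among leukocyte markers 2 of 13 had a promoter score at a median RNA signal of 6.56, below the 82.0% of genes with RNA signals from 1 to 10. Cd74, a gene of antigen presentation, had an RNA signal of 10.1 and a promoter score of 0. How much of the tissue's chromatin each of these cell types contributed was not measured.

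Among other groups, immediate early and stress genes had much Pol II and little RNA. These genes are textbook examples of polymerase paused in wait of a signal. Of 22, 20 (90.9%) had a promoter score, beside 56.7% of all named genes and 82.0% of those with RNA signals from 1 to 10. The median score of the 22 was 419.5 at a median RNA signal of 1.83. Klf6, a zinc finger factor gene, had 1350 at 1.78 (SD 0.473). Btg2, for an antiproliferative protein, had 909 at 0.916 (SD 0.377). Junb had 752 at 1.77, and Fos had 306 at 0.13 (SD 0.166). Jund was listed with a promoter score of 0 and a proximal score of 1730 at an RNA signal of 39.8. Hspa1a, a heat shock gene with a near-identical neighbour, Hspa1b, went the other way with a score of 152 at an RNA signal of 28.3. All 20 housekeeping genes had a score, with medians of 37.4 for RNA and 710 for the score. So did all 12 Pol II subunit genes, with medians of 21.1 and 414. Factors of pausing and elongation had a score at 30 of 33 genes (90.9%) and medians of 7.79 and 486. Read only from the transcript with the highest RNA signal, the share was 78.8% for these factors. It was 90% for housekeeping and 86.4% for immediate early and stress genes. Among olfactory receptor genes, of which 12 of 1106 had an RNA signal of at least 1, 6 (0.542%) had a promoter score. Among Hox genes, of which 5 of 39 had such an RNA signal, 6 (15.4%) had a score. Of all named genes with an RNA signal under 1, 21.4% had a promoter score.

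**Figure D4:**
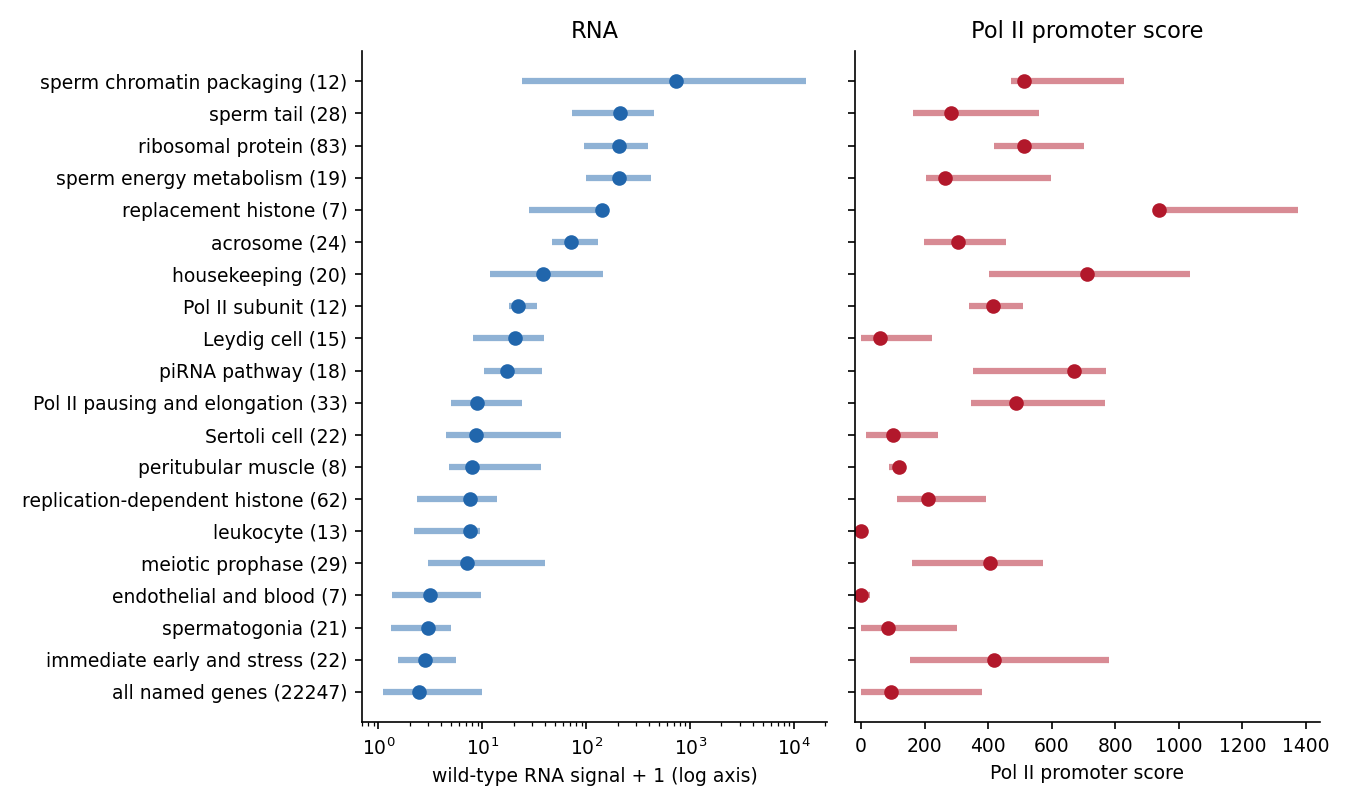
Median (point) and quartiles (bar) of the wild-type RNA signal + 1 (left, log axis) and of the Pol II promoter score (right, linear axis) for 19 gene lists and all named genes, ordered by median RNA, with the number of genes in parentheses. Tail and ribosomal protein genes stand side by side in RNA, at medians of 212 and 207, and apart in score, at 284 and 513.

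High RNA without any Pol II score was rare and concentrated on the X chromosome. Of 5042 named genes spanning at least 200 bp with an RNA signal of at least 10, 92 (1.82%) had 0 in all 3 classes. Of these 92, 40 (43.5%) lay on the X chromosome, which held 115 (2.28%) of the 5042. Predicted genes with names of the form Gm and a number made up 26 of the 92 (28.3%) and 1.79% of the 5042. The median span of the 92 was 4632 bp against 15406 bp of the 5042. At an RNA signal of at least 100, 6 of 853 genes (0.703%) had no score. They were Rp23-438h3.2, Gm5941 and Gm15104 on the X chromosome, Dynlt1c, Rnf133 and Csnka2ip. Rnf133, for a ubiquitin ligase of spermatids, had an RNA signal of 127 (SD 7.20). Csnka2ip, for a partner of casein kinase, had 103 (SD 6.53). Dynlt1c, a dynein light chain gene, had 139 (SD 4.32). H2al1e and H2al1n, X-linked genes of a histone variant of spermatids, had 86.2 and 76.1. Dynlt1c and the H2al1 genes have near-identical copies, between which reads can be split, so their values are uncertain.

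A further 257 of the 5042 genes (5.1%) had a score in another class but not at the promoter, 141 of them a proximal score. For 79 (30.7%) the gene overlapped a transcript of another name that did have a promoter score. Gtsf1l, related to a piRNA pathway gene, had an RNA signal of 316 (SD 12.2) with a proximal score of 380. Ptgds, for a prostaglandin synthase, had 294 (SD 13.4) with a proximal score of 317 and a distal score of 815. Syce1, of the synaptonemal complex, had 212 (SD 9.91) with only a distal score of 43.3, and Slc2a3, a glucose transporter gene, had 193 with only a distal score of 174. Tcte3, a tail gene with copies on chromosome 17, had 402 with only a distal score of 689. Mitochondrial messages are made by another polymerase in the organelle. COX2, at an RNA signal of 1400, and mt-Nd4, at 264, both had a promoter score of 0 and the same proximal score of 297, so a proximal score also occurred where Pol II does not transcribe.

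The X chromosome had fewer and lower promoter scores than the autosomes at RNA signals from 1 to 100, and more frequent ones at RNA signals under 1. At RNA signals from 10 to 100, 52.0% of 102 X-linked genes had a promoter score (95% Wilson interval 42.4 to 61.4), against 93.7% of 4085 autosomal genes (92.9 to 94.4). Genes without a score in any class were 36.3% on the X and 1.18% on the autosomes. Among genes with a score the medians were 150 (quartiles 79.4 and 247) and 437 (261.5 and 658.5). From 1 to 10 the shares were 56.7% of 330 and 84.0% of 6558, with median scores of 174 and 350. Under 1 the order of the shares was the reverse, 32.1% of 445 (27.96 to 36.6) and 21.7% of 9165 (20.9 to 22.6), with median scores of 119 and 141. The intervals cover counting over genes only. Akap4, an X-linked gene for an anchoring protein of the tail, had an RNA signal of 327 and a score of 305. A male cell carries a single X chromosome, which is silenced during meiosis, and neither property was measured in these libraries.

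The reverse case, high Pol II with little RNA, was also uncommon. Among genes spanning at least 200 bp the top 10% of promoter scores began at 800 and held 1254 genes, of which 51 (4.07%) had an RNA signal under 1. Only 2 of the 51 had a signal under 0.1. The 1254 genes had a median RNA signal of 13.4 with quartiles of 5.11 and 37.9. For 25 of the 51 (49.0%) another gene name within 10 kb carried the same score, as it did for 353 of the 1254 (28.1%). For 21 of the 25 such a partner had an RNA signal of at least 1. Partners are not always distinct genes, since 617 of the named genes had no RefSeq match and can be second names of a locus. Strip2 and mKIAA1170, for example, began at the same position and shared a score of 802. Among those of the 51 that shared their score with no other gene name, Arl15, for a small GTPase, had the highest score, 1950, at an RNA signal of 0.322 (SD 0.117). Washc4, for a subunit of an actin-regulating complex on endosomes, had 1640 at 0.806 (SD 0.152). Mylip, a ubiquitin ligase gene that targets the LDL receptor, had 1440 at 0.643 (SD 0.27). Creb1, for a transcription factor that responds to cyclic AMP, had 1210 at 0.386 (SD 0.073). Arid5a, for an RNA-binding protein that stabilises messages in immune cells, had 1200 at 0.094 (SD 0.033). Zfp963 and Zfp568, both zinc finger genes, had 1160 at 0.132 and 1110 at 0.37. Just outside the limit, Tango6 had a score of 793 at an RNA signal of 0.92.

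Divergent gene pairs that were given a single promoter score ranged widely in how far their RNA differed. In 659 pairs, genes on opposite strands had starts within 1 kb and the same promoter score, with a median distance of 152 bp. The median ratio of the higher to the lower RNA signal, with 1 added to each, was 2.93 (quartiles 1.64 and 7.02). It was at least 10-fold in 122 pairs (18.5%) and under 2-fold in 230 (34.9%). This ratio cannot fall below 1, and gene pairs without a shared score were not compared. It therefore cannot show whether these pairs were more or less alike than others. The median RNA signals of the higher and the lower member were 16.9 and 3.55. Dbil5, for an acyl-CoA binding protein of late spermatids, had an RNA signal of 2513 (SD 54.8) and its neighbour Gemin4, for a protein of the SMN complex, 12.1 (SD 0.892). Both had a score of 1660 and their starts were 40 bp apart. Fam229b at 534 and Tube1, a tubulin gene, at 0.462 shared a score of 476. Ddx25, for an RNA helicase of spermatids, had 250 and Pus3, a pseudouridine synthase gene, had 0.971 with a shared score of 291. For such pairs the score cannot be assigned to a strand.

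Among genes with an RNA signal of at least 1, the CG content of the promoter followed the score more closely than RNA did. Promoters of 300 bases (250 before to 50 after the start, RefSeq, GRCm38.p6) were available with a single start for 13829 of the named genes. The CG ratio is the number of CG dinucleotides over the number that the C and G content predicts. Over all 13829 genes, silent ones included, the order was the reverse, with Spearman's rho of 0.727 between RNA and the score and 0.688 between the CG ratio and the score. At an RNA signal of at least 1 (7579 genes) these were 0.266 and 0.524. Among the 3286 genes with an RNA signal of at least 10, rho between the CG ratio and the promoter score was 0.533, while it was 0.0395 between RNA and the score and -0.0954 between the CG ratio and RNA. Among the 550 genes with at least 100 the first was 0.606. Base composition as such moved with the score too. At RNA signals of at least 10, rho between the GC percentage and the score was 0.434. Within 5 groups of similar GC percentage rho for the CG ratio ranged from 0.269 to 0.532, and within 5 groups of similar CG ratio rho for the GC percentage ranged from 0.0734 to 0.299. The part of base composition in the reads of either library was not tested.

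Split into 5 groups by CG ratio, the genes with RNA signals from 10 to 100 had median scores of 163, 359, 451.5, 517.5 and 565 from the lowest to the highest group. At RNA signals of 100 and above, the medians were 227, 401, 561, 645 and 599.5. From 1 to 10, 41.5% of genes had a score in the lowest group and 97.4% in the highest. The tail genes had a median CG ratio of 0.154 (18 genes, quartiles 0.0960 and 0.838). The ribosomal protein genes had 0.877 (53 genes, quartiles 0.736 and 1.00), so the upper quartile of the tail genes was close to their median. The X chromosome stood apart within these groups as well. In the lowest CG group at RNA signals of at least 10, 32.7% of 52 X-linked and 82.2% of 613 autosomal genes had a score. In the other groups the shares were 91.4% of 35 and 98.3% of 2584, with median scores of 217 and 494.

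**Figure D5:**
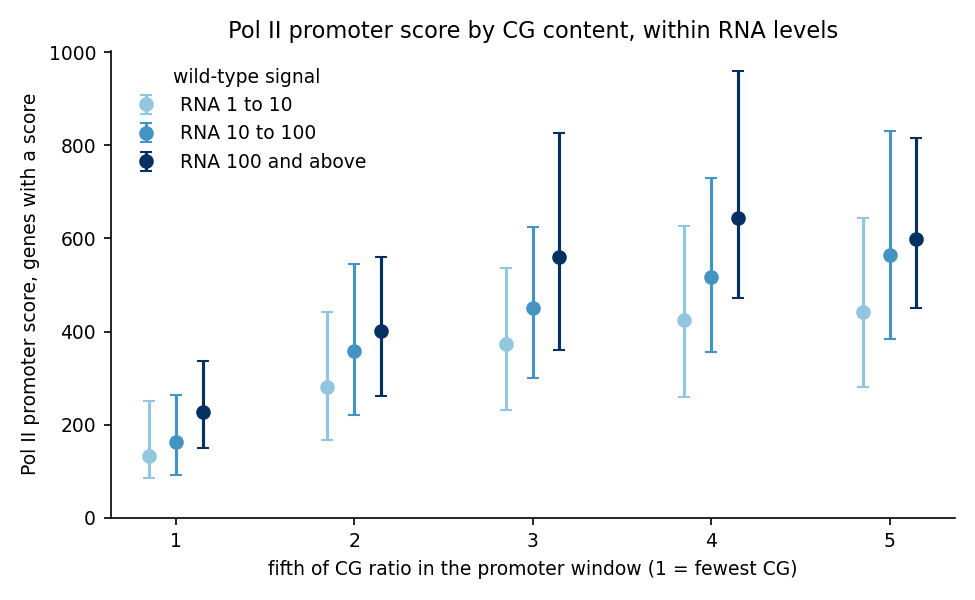
Pol II promoter score of genes that have a score (y axis, median with bars from the lower to the upper quartile) in 5 groups of rising CG ratio of the promoter window (x axis), for 3 ranges of wild-type RNA signal. Within each RNA range the medians climb from the lowest CG group, at 132, 163 and 227, to 442.5, 565 and 599.5 in the highest.

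Stretches of 100 bases before the start are given as examples, with CG and the TATA box sequence TATAAA on the strand of the gene in capitals. The first set holds some of the genes with RNA signals above 2000, picked with their values known, and other such genes are not shown. Prm1 and Tnp2 combined few CG with scores of 871 and 1090, in the top 10% of scores, whereas Smcp had 259. CG ratios were 0.0487 for Prm1, 0.174 for Tnp2 and 0 for Smcp. Their positions are chr16:10796824-10796923, strand -; chr16:10788656-10788755, strand -; and chr3:92589074-92589173, strand -.
Prm1: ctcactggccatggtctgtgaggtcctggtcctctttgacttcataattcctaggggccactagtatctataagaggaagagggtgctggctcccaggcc
Tnp2: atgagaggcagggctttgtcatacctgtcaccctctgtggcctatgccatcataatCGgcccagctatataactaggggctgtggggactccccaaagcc
Smcp: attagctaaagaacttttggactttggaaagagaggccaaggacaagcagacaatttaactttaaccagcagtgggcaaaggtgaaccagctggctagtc
The second set holds genes with promoter scores above 2000 and RNA signals under 20. The positions are chr17:80207306-80207405, strand - for Srsf7, chr3:65958250-65958349, strand - for Ccnl1 and chr11:69758634-69758733, strand - for Polr2a. They hold 11, 15 and 9 CG dinucleotides, and Polr2a has a TATAAA.
Srsf7: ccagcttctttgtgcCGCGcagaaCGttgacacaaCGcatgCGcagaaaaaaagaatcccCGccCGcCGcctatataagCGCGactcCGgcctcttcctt
Ccnl1: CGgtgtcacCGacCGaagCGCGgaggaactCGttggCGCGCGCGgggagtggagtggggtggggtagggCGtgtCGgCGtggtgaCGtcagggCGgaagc
Polr2a: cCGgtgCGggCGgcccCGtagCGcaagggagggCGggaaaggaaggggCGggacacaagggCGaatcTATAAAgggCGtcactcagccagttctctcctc

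The groups of genes in which score and RNA were mismatched differed in the CG ratio. The 60 matched genes with an RNA signal of at least 10 and no score in any class had a median CG ratio of 0.130, against 0.601 for all named genes and 0.374 for all 22862 RefSeq promoters with a single start. The 24 matched genes with a score of at least 800 and an RNA signal under 1 had 0.855, beside 0.90 for the 806 with a score as high and an RNA signal of at least 1. Examples of no score are Rnf133 (chr6:23650306-23650405, strand -) and Csnka2ip (chr16:64602332-64602431, strand -), with 0 and 1 CG.
Rnf133: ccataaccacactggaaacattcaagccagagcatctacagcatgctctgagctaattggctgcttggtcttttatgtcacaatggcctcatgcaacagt
Csnka2ip: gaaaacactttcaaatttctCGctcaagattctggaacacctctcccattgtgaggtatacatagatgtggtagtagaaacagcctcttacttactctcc
Examples of a high score with little RNA are Mylip (chr13:45389642-45389741, strand +) and Arid5a (chr1:36307633-36307732, strand +), with 10 and 8 CG.
Mylip: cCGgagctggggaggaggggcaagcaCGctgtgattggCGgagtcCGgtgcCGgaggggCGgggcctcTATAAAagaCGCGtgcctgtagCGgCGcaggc
Arid5a: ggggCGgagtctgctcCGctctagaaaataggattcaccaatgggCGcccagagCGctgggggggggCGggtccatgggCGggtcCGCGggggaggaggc

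Short motifs were searched on both strands of the 300 bases, and a match is a description of letters only. TATAAA was found in 18 of the 60 promoters without any score (30.0%), in 7.57% of those with a score of at least 800 and an RNA signal of at least 1, and in 14.8% of all RefSeq promoters. Counted only where a TATA box is usually found, on the strand of the gene and 40 to 20 bases before the start, it was in 1.67%, 2.36% and 2.42% of these groups, so the contrast was not present there. GGGCGG, the core letters bound by Sp1 family factors, was found in 10.0%, 77.2% and 35.2% of the same groups. GGGCGG holds a CG and so is not independent of the CG ratio. CCAAT was found in 53.3%, 41.4% and 38.2%, and TGACGTCA, the letters of the cyclic AMP response element, in 0%, 5.71% and 1.85%. Replication-dependent histone genes held TATAAA in 32 of 54 promoters (59.3%), 12 of them (22.2%) in that window. A promoter score was listed for 55 of the 62 histone genes (88.7%), beside 56.7% of all named genes. The histone genes had a median score of 209.5 at a median RNA signal of 6.64. These messages mostly lack a poly(A) tail, and the RNA library was made from polyadenylated RNA.

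Transcripts spanning under 200 bp behaved unlike the rest. There were 4162, of which 81.8% had an RNA signal of 0, yet 51.9% had a promoter score, beside 53.7% of the 51188 longer transcripts. At an RNA signal of 0 a promoter score was listed for 31.2% of all transcripts but for 0.254% of those of at least 200 bp. Most of the short ones, 3271, carried accession-like names beginning with DQ and had a median span of 35 bp, and 63.0% of these had a promoter score. Among microRNA genes 59 of 523 had a promoter score, and among small nucleolar and small nuclear RNA genes 22 of 114, many of which lie inside host genes. These short transcripts also bear on the highest RNA signals. From 100 to 1000 and at 1000 and above, 78.9% and 60.3% of all transcripts had a promoter score, against 85.7% and 88.9% of those spanning at least 200 bp.

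Within a gene, transcripts with and without a promoter score had similar RNA. For 2319 genes listed with both kinds, the median RNA signal of the scored transcripts was compared with that of the unscored ones. The scored median was the higher in 1054 (45.5%). The median log2 ratio of scored to unscored, with 1 added to each, was -0.04. By this ratio the scored median was at least 2-fold higher in 205 genes and at least 2-fold lower in 298. RNA signals of transcripts that share exons are not independent, so start sites within a gene could not be ranked by these values.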

How the data were processed

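The authors deposited an expression table and a binding table, and the submitters' processing notes name the build mm9. Per the file headers the expression table lists, per transcript, the mean and SD of an RNA signal; the submitters' processing notes name Bowtie, TopHat and Cufflinks for it. Per the file headers the deposited binding table lists a Pol II score per transcript in 3 classes, and the notes name Bowtie. The sources used here do not give versions, the peak caller, the definitions of score and signal, the class distances or the use of strand. Between-gene comparisons of RNA assume a signal scaled by transcript length, as Cufflinks gives.

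The tables were joined by transcript identifier. The 5 columns of other samples were not used, 4 empty distal cells were read as 0, and 69 transcripts of the binding table alone were left out. Gene names were matched to RefSeq symbols, which changed 3084 names, and 7230 transcripts without a gene were left out of the gene level. A further 617 named genes had no match and kept the listed name, so a gene can appear under more than 1 name. With 1 library per assay no test was run; shares have 95% Wilson intervals where given, and correlations are descriptions. Calculations were checked on simulated data and used Python 3.11, pandas 2.3.3, numpy 2.4.6 and scipy 1.17.1. CG ratios and motifs came from RefSeq promoters of GRCm38.p6, so no coordinate was carried between builds; the GC comparison and the split of the X chromosome by CG ratio were later additions, made with the results in view.

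Genes were named by rule: the 12 highest in RNA, in promoter score, in RNA without a score, in RNA with a score in another class only and in score at RNA under 1, with and without shared scores; the extremes of each gene list; and the packaging genes. Other genes, the divergent pairs among them, were picked with their values already known. The members, rules and 24 gene lists were chosen with earlier results of these data known. Part of the genes named by this rule is not reported here.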

Additional observations from a re-analysis of the deposited data

How the results depend on the processing

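No paired analysis was possible because each assay has 1 library and no test was run. Spearman's rho between RNA and the promoter score, 0.533 over all transcripts, was 0.705 at the gene level, 0.567 for spans of at least 200 bp, 0.481 with the highest and 0.512 with the sum of the 3 classes. It was 0.382 for signals above their SD, 0.375 for scores above 0, 0.121 at RNA of at least 1 and 0.0140 at RNA of at least 5. Pearson's r of 0.418 was 0.482 with 0.1 added in place of 1. The share of transcripts with a promoter score at RNA under 1, 32.5%, was 21.4% for genes, 29.99% for scores of at least 50 and 66.3% for any class. At RNA of at least 1, 75.5% became 86.1%, 74.1% and 94.6%. The 92 genes with RNA and no score were 163 at RNA of at least 5, 21 at RNA of at least 50, 349 with the promoter class alone, and 282 when transcripts were counted. The 51 genes with a high score and RNA under 1 were 2 at RNA under 0.1, 193 at RNA under 3, 21 in the top 5% and 113 in the top 20% of scores, 287 as transcripts, and 29 without genes that share a score. The counts change because each rule admits more or fewer features, and the cause of the other changes was not tested. Leaving out names at more than 1 place, chosen after seeing the data, gave a rho of 0.706 and counts of 90 and 51. In all, 26 of 31 alternatives moved a value and none of the 31 reversed one. Higher RNA limits were not among them. Over transcripts rho was -0.0175 at RNA of at least 10 and -0.0531 at RNA of at least 100. Over genes it was 0.036 and 0.0759. The unknown depth of the Pol II library limits what a score of 0 can show.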

Other observations

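Of the 69 transcripts listed in the binding table alone, 1 had a Pol II promoter score.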
